A study of Homo sapiens with 30 samples.

Results

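Macrophage-like THP-1 cells given 10 µg/ml of titanium dioxide nanobelts (TiO2-NB) for 24 h were compared with cells kept without particles for the same time. The comparison rests on 6 of the series' 30 arrays, the 3 labelled 10 µg/ml TiO2-NB at 24 h and the 3 labelled control (0 µg/ml) at 24 h. THP-1 is an established line from a human acute monocytic leukaemia, so every group came from 1 line. The cells of every group, controls included, first received PMA, a phorbol ester, at 82 nM over 24 h and became adherent. They were then scraped and replated in flasks with or without particles. Values are log2 probe set intensities from Affymetrix arrays, summarised by RMA. 3 further sets of arrays served for direct comparisons. They were 3 arrays of 100 µg/ml TiO2-NB at 24 h, 3 arrays of 10 µg/ml multi-walled carbon nanotubes (MWCNT) at 24 h, and 6 arrays of 10 µg/ml TiO2-NB and control at 1 h. The labels call the 3 arrays of a group biological replicates.

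Titanium dioxide nanobelts are long, thin crystals that macrophages engulf. Macrophages that take up stiff, poorly soluble particles can release chemokines, many of them under the control of the transcription factor NF-kappaB. Neutrophil-attracting chemokines such as CXCL1, CXCL2, CXCL3, CXCL5 and CXCL8 and the monocyte-attracting chemokines CCL2 and CCL4 are among the best known products of such cells. The study, as its title states, asked how human cell types respond to both materials, and the low dose shows what can be measured below the dose of 100 µg/ml.

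The arrays of the 2 groups correlated at 0.9918 or more with each other over the tested genes, and their medians ran from 6.385 to 6.413. The mean level of 17 macrophage markers was 10.25 to 10.37 in the control arrays and 10.26 to 10.39 in the exposed arrays, and that of 13 monocyte markers was 6.97 to 7.21 and 6.91 to 7.15. The mean levels of 7 epithelial, 9 lymphocyte and 7 fibroblast markers also overlapped between the groups, within 5.85 and 6.51 on every array. No marker of these 5 lists passed the test. Mean control levels were 13.94 for SPP1, 10.99 for MSR1 and 9.68 for CD163, all made by macrophages, 5.26 for the mannose receptor MRC1, and 4.75 for MPO, a marker of myeloid precursors. Bulk RNA cannot tell fewer cells of a type from less RNA per cell. Array 3 of each group stood apart from arrays 1 and 2 on the main axis of the spread within the 24 h groups, with scores of 12.51 and 11.96 against -7.06 to -5.45.

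At 10 µg/ml few genes could be told from control, and those that could were lower. Of 10050 genes, 2 (0.0199%) passed an adjusted p under 0.05 in limma's moderated test with Benjamini-Hochberg adjustment, and both fell. They were ANKRD11, a chromatin regulator that recruits histone deacetylases, and TMEM50B, a small membrane protein of the endoplasmic reticulum and Golgi. No gene passed as higher, while 245 higher and 229 lower genes had an unadjusted p under 0.05, together 4.72% of all genes (2.44% and 2.28%). The 3 exposed arrays lay wholly above or wholly below the 3 controls in 968 genes (9.63%), 473 of them higher and 495 lower. Leaving out control array 2, control array 3, exposed array 2 or exposed array 3 left 1 called gene, and leaving out exposed array 1 gave 3. With the array number as a block, 3 genes were called over 30 arrays and none over 9 or 6 arrays, where 1095 and 773 had an unadjusted p under 0.05 (limma).

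Most of the transcriptome was bounded near its control level. The log2 fold changes had a median of 0.0024 and an SD of 0.119, and ran from -1.47 to 0.87. For 9529 genes (94.8%) the 95% interval of the change lay within 1.5-fold of control in both directions, against 81.7% for 100 µg/ml over the same control arrays. Apart from any test, 25 genes (0.249%) were at least 1.5-fold from control. Of the 2 called genes 1 (0.00995%) was. The median standard error of a change was 0.103 on the log2 scale.

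**Figure D1:**
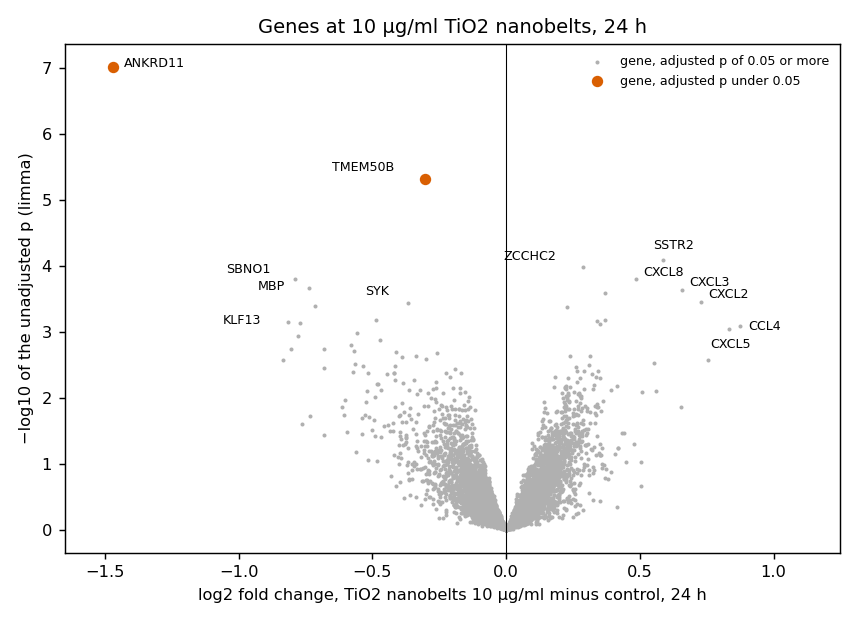
Each point is 1 of 10050 genes, with the log2 fold change of 10 µg/ml TiO2 nanobelts over control at 24 h on the x axis and the negative log10 of limma's unadjusted p on the y axis. Only ANKRD11 at -1.47 and TMEM50B at -0.30 (orange) passed the adjusted threshold, and the chemokines CXCL8, CXCL3, CXCL2, CCL4 and CXCL5 lie among the smallest p-values of the higher genes.

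ANKRD11 gave the widest separation. Its level was 7.33, 7.53 and 7.58 on the control arrays and 6.40, 6.09 and 5.55 on the arrays of 10 µg/ml. Every exposed array was therefore below every control array, with array 3 of the exposed group the lowest. The gene fell by 1.47 ± 0.195 (SE) on the log2 scale, or 2.77-fold, with a 95% interval of -1.87 to -1.07 and an adjusted p of 0.000977 (limma). With 100 µg/ml the arrays read 5.45, 5.35 and 5.53, and the difference between the doses was -0.57 (adjusted p = 0.0540, limma). With 10 µg/ml MWCNT they read 7.29, 7.17 and 7.37, which overlapped the control arrays. With the array number as a block the adjusted p in limma was 0.000279 over 30 arrays, which include 100 µg/ml, whose numbers did not pair with those of 10 µg/ml. It was 0.0939 over the 9 arrays of the control and both 10 µg/ml groups, and 0.487 over the 6 arrays alone. Fitted on the 6 arrays without a block, the adjusted p in limma was 0.246. Leaving out array 3 of both groups gave -1.18 with an adjusted p of 0.171. The gene was represented by 1 kept probe set, 219437_s_at.

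TMEM50B changed by less, with little spread between arrays. Its level was 8.52, 8.64 and 8.59 in the controls and 8.33, 8.26 and 8.26 with 10 µg/ml, so the groups did not overlap. The gene fell by 0.30 ± 0.0513 (SE), or 1.23-fold, with an adjusted p of 0.0240 (limma). With 100 µg/ml the level was 7.91, 7.84 and 7.88, which was 0.40 below that at 10 µg/ml on the log2 scale (adjusted p = 6.37e-06, limma). The call at 10 µg/ml was lost without control array 2 (adjusted p = 0.254, limma), control array 3 (0.167), exposed array 2 (0.272) or exposed array 3 (0.165). With the array number as a block it was 0.0438 over 30 arrays, 0.192 over 9 and 0.543 over 6 (adjusted p, limma). TMEM50B also had 1 kept probe set.

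The 10 genes next in order of p among the lower ones did not pass, with adjusted p between 0.269 and 0.560 in limma. They are given as values only, and their arrays did not overlap with control, which was true of 4.93% of all genes in the lower direction. MBP, whose gene encodes myelin basic protein and the Golli proteins of haematopoietic cells, read 9.66, 9.86 and 9.93 in the controls and 9.25, 9.11 and 8.86 with 10 µg/ml. SBNO1, a helicase-like nuclear protein, read 7.48, 7.79 and 7.50 against 7.20, 6.66 and 6.55. KLF13, a zinc finger transcription factor, read 6.19, 6.37 and 6.51 against 5.50, 5.56 and 5.55. In all 3 of these genes the lowest control array stood above the highest exposed array.

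The other genes of this order had various functions. SYK, the tyrosine kinase downstream of Fc receptors and integrins, differed from control by -0.37 ± 0.0879 (SE). FYB1, an adaptor that links receptor signals to actin, differed by -0.47 ± 0.129 and GNAI2, an inhibitory G protein subunit used by chemokine receptors, by -0.56. COX20, a chaperone of cytochrome c oxidase assembly, differed by -0.78 ± 0.211. The remaining differences were -0.77 for PCYOX1, a prenylcysteine oxidase that lay under the 25th percentile in both groups, -0.71 for GATAD1, a zinc finger protein of chromatin, and -0.49 for CASP2, a caspase. SYK passed when only the 15 arrays of 24 h were fitted (adjusted p = 0.0497, limma), and SBNO1 passed with the array number as a block over 30 arrays (0.0438) or without exposed array 1 (0.0451).

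**Figure D2:**
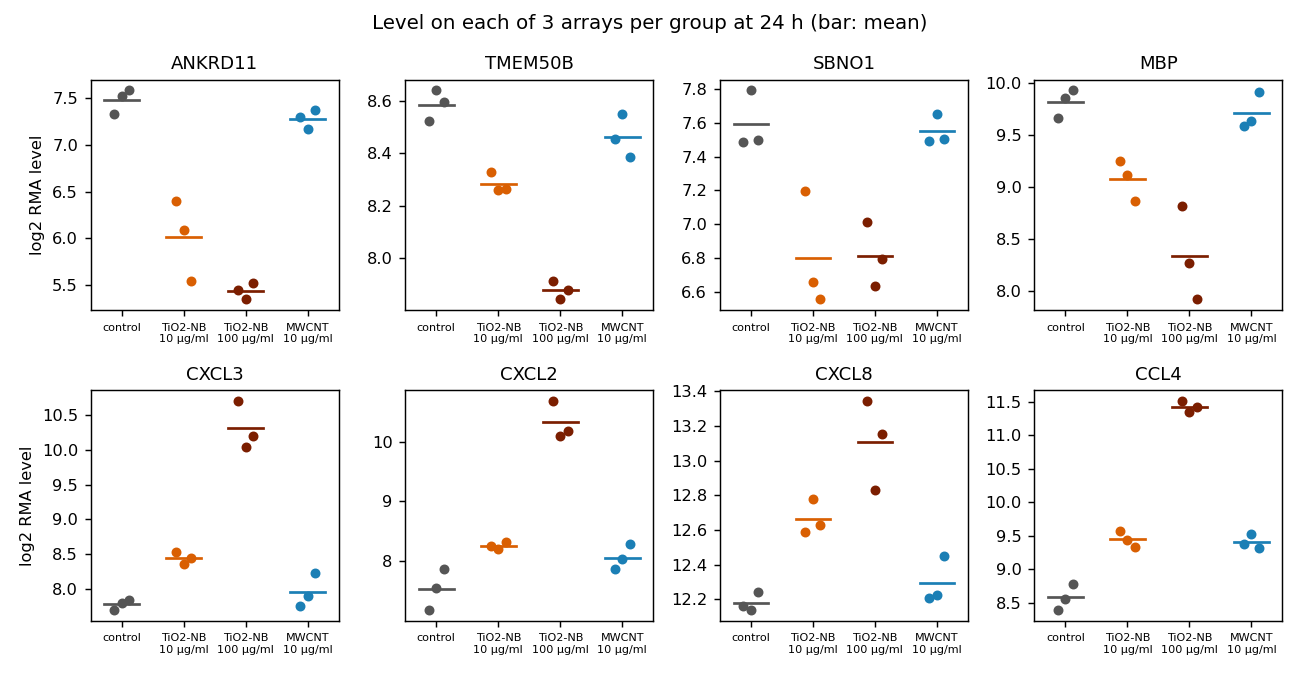
The log2 RMA level of 8 genes (y axis) is shown for each of the 3 arrays of control, 10 and 100 µg/ml TiO2 nanobelts and 10 µg/ml MWCNT at 24 h, with a bar at each group's mean. ANKRD11, TMEM50B, SBNO1 and MBP are lower with 10 µg/ml TiO2 nanobelts than in any control array, and CXCL3, CXCL2, CXCL8 and CCL4 are higher, though only ANKRD11 and TMEM50B passed the test.

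In several genes with more than 1 probe set, a lower reading was not shared by all of them. When each of the 15312 kept probe sets was tested on its own, 15 (0.098%) passed in limma, 14 lower (0.0914%) and 1 higher (0.00653%), and 13 of the 15 were at least 1.5-fold from control. The genes of this paragraph and the next were chosen from that test, after their values were seen. Besides ANKRD11 and TMEM50B, the lower probe sets belonged to TOP1, SRSF6, SPEN, DDX17, SLC25A36, WASHC4, TRIM14, PRKCI, EPRS1, ELF1, GPATCH8 and CEP350. Each of these 12 genes also had a brighter probe set, which stood for the gene in the main comparison, and none of those passed. That none passed there follows from the choice of genes, as the main comparison called only ANKRD11 and TMEM50B. The sizes below come from the values used in that choice, so their contrast is no test. How often probe sets of 1 gene differ this much over all genes was not counted. The changes of the called probe sets ran from -1.60 to -0.61 (median -0.876), and those of the brighter probe sets of the same genes ran from -0.09 to 0.24 (median 0.008), with 1 of the 12 at an unadjusted p under 0.05 (WASHC4, at 0.24). Over all probe sets 2.19% were higher and 3.33% lower at that p. Of all 20 other kept probe sets of the 12 genes, the brightest included, 11 lay below 0 and 3 were lower at that p, namely 1 each of WASHC4 (-0.52), EPRS1 (-0.48) and SLC25A36 (-0.42). The single higher probe set, annotated to IGKC, an immunoglobulin light chain gene, differed by 0.32, and the other 6 probe sets of that gene by -0.17 to 0.09.

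TOP1, the topoisomerase that relaxes DNA supercoils, gave the lowest value of these probe sets. Its probe set 208900_s_at read 7.67, 7.91 and 7.80 in the controls and 6.73, 6.37 and 5.49 with 10 µg/ml, and it fell by 1.60 ± 0.239 (SE; adjusted p = 0.00507, limma). Its probe set 208901_s_at read 11.44, 11.60 and 11.35 in the controls and 11.55, 11.62 and 11.35 with 10 µg/ml, a difference of 0.04 ± 0.0857. So 1 gene gave both a 3.02-fold lower and an overlapping reading on the same arrays. SRSF6, a splicing factor, fell by 1.28 ± 0.202 on probe set 206108_s_at (adjusted p = 0.00763, limma) and differed by 0.00 ± 0.0885 on 208804_s_at. SPEN, a transcriptional repressor that recruits histone deacetylases, fell by 1.34 on 201996_s_at (adjusted p = 0.0390, limma) and differed by 0.02 on 201997_s_at. DDX17, an RNA helicase, fell by 1.08 on 213998_s_at (adjusted p = 0.0451, limma) and differed by 0.01 on 208718_at. Which part of each transcript a probe set reads was not analysed here.

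With 100 µg/ml, over the same control arrays, the dimmer TOP1 probe set stood at -2.51, that of SRSF6 at -1.74, that of SPEN at -2.04 and that of DDX17 at -1.80. The brighter probe sets of the 12 genes ran from -0.19 to 0.35 there. Taking the mean of each gene's probe sets in place of the brightest, TOP1 was called at 10 µg/ml with -0.78 (adjusted p = 0.0325, limma). Among the lower genes named above, MBP, GATAD1, SBNO1, CASP2 and SYK also had several kept probe sets with unlike values. MBP stood at -0.74 on 210136_at and at -0.01 and 0.04 on its other 2. GATAD1 stood at -0.71 and -0.58 on 2 probe sets and at 0.05 on the third. SBNO1 stood at -0.79 and -0.10. CASP2 stood at -0.49, -0.28 and -0.12 on 3 probe sets and at 0.18 on the fourth, where the exposed arrays lay wholly above control. SYK stood at -0.37 and at -0.12, the latter with overlapping arrays. The 3 probe sets of FYB1 stood at -0.63, -0.35 and -0.47.

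**Figure D3:**
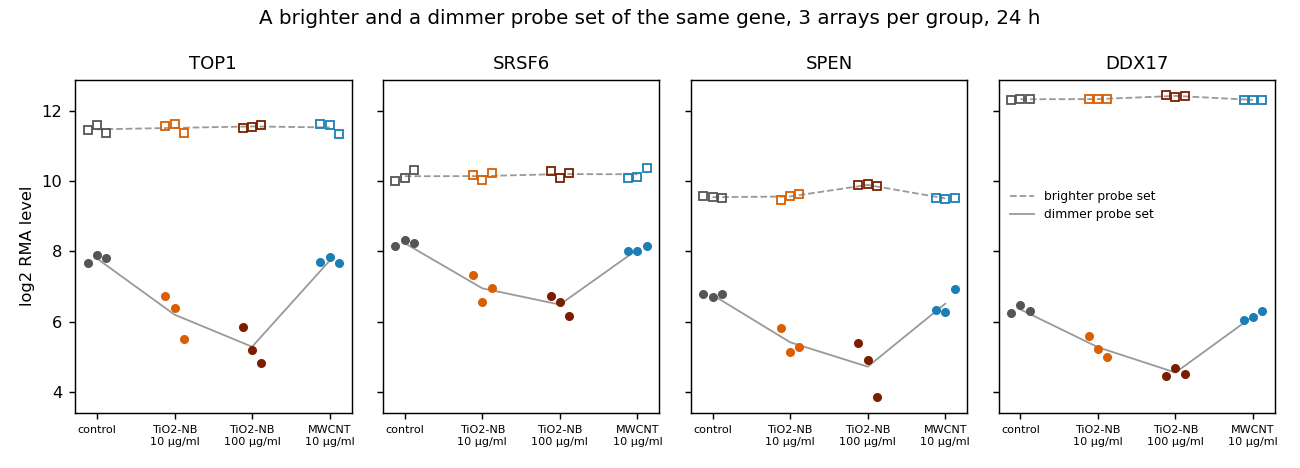
For TOP1, SRSF6, SPEN and DDX17 the log2 RMA level (y axis) of the brighter probe set (open squares, dashed line through means) and of a dimmer one (filled circles, solid line) is shown on each of 3 arrays per group at 24 h. The dimmer probe set of TOP1 went from 7.67 to 7.91 in the controls to 5.49 to 6.73 with 10 µg/ml TiO2 nanobelts, while the brighter one stayed between 11.35 and 11.62 in both groups.

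The balance between the ends of a control transcript moved with the groups. The array carries control probe sets for the 3′ and 5′ ends of ACTB, and the 3′ minus 5′ difference was 0.350, 0.489 and 0.416 in the controls and 0.515, 0.637 and 0.508 with 10 µg/ml. The groups did not overlap, and the means differed by 0.135 on the log2 scale (exact permutation test, two-sided p = 0.10, the smallest that 3 against 3 arrays allow). The same difference for GAPDH was 0.279 to 0.344 in the controls and 0.282 to 0.317 in the exposed arrays, which overlapped (exact permutation p = 0.70). Its part in the lower probe sets was not tested.

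Many of the lower genes of 24 h also had lower values at 1 h, on other arrays with other controls. No gene passed at 1 h (213 genes, 2.12%, had an unadjusted p under 0.05 in limma), so these are values only. Of the 12 lower genes chosen at 24 h, 10 lay below 0 at 1 h, as did 45.0% of all genes, and 8 had an unadjusted p under 0.05 there, as did 1.42% of all genes in that direction. Of the 12 higher genes chosen at 24 h, 10 lay above 0 at 1 h, as did 55.0% of all genes, and none had an unadjusted p under 0.05 (0.697% of all genes did in that direction), the smallest being 0.114. Whether the 2 sets differ in this was not tested. Among the lower genes at 1 h, KLF13 stood at -0.68, GATAD1 at -0.66, ANKRD11 at -0.64, MBP at -0.49 and GNAI2 at -0.47. TMEM50B stood at 0.08 and CASP2 at 0.17. Many of these values leaned on exposed array 2 of 1 h, on which KLF13 read 6.68 against 7.53 and 7.91 on the others, and which had the highest ACTB 3′ minus 5′ difference of the 6 arrays, 0.832. Without it 2 of the 12 had an unadjusted p under 0.05 (0.896% of all genes), KLF13 stood at -0.33, GATAD1 at -0.37, ANKRD11 at -0.55, MBP at -0.37, GNAI2 at -0.23 and SYK at -0.06, where it had been -0.22. Without control array 1 of 1 h the count was 4. Both omissions were chosen after seeing the data, and the part of the ACTB difference was not tested.

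ANKRD11 at 1 h read 8.21, 7.36 and 7.92 in the controls and 7.03, 7.02 and 7.54 with 10 µg/ml, so the groups overlapped. The dimmer probe sets of the 12 genes with a split ran from -0.76 to -0.02 at 1 h (median -0.446), and their brighter partners from -0.06 to 0.10 (median 0.012). Without exposed array 2 of 1 h the dimmer ones ran from -0.58 to 0.04 (median -0.353) and the brighter ones from -0.09 to 0.09 (median 0.029). The ACTB 3′ minus 5′ difference at 1 h was 0.544, 0.501 and 0.749 in the controls and 0.607, 0.832 and 0.707 with 10 µg/ml, which overlapped. The response at 24 h was tested directly against that at 1 h, and no gene passed (256, or 2.55%, with an unadjusted p under 0.05 in limma). The difference between the times was -0.83 ± 0.276 for ANKRD11 and -0.38 ± 0.0726 for TMEM50B, with adjusted p of 1.00 and 0.264 (limma).

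**Figure D4:**
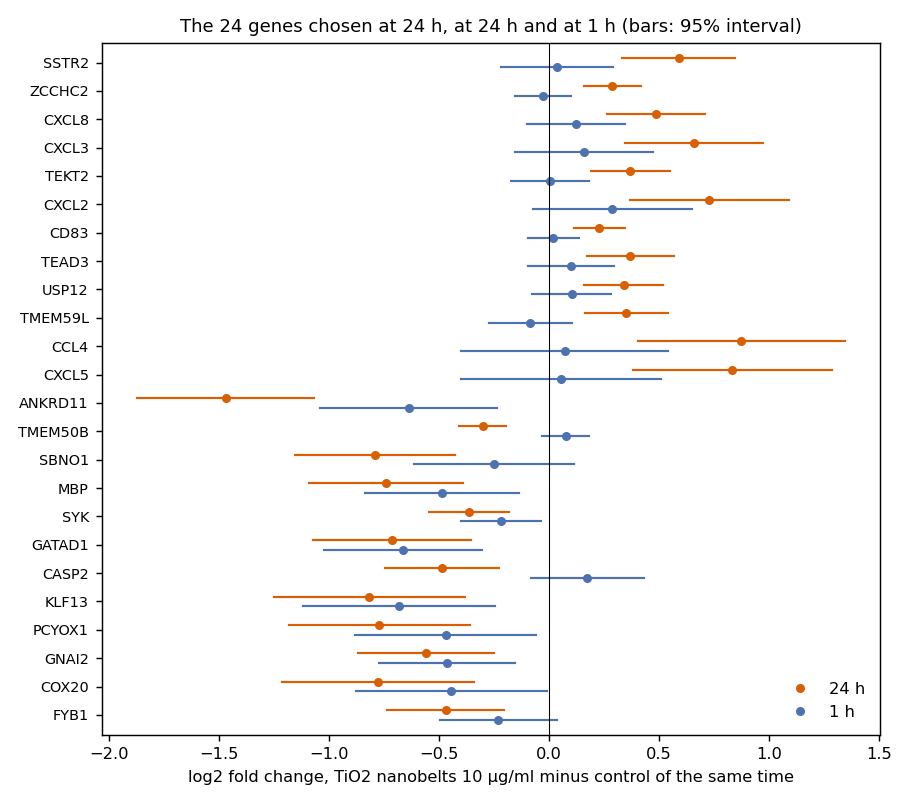
The log2 fold change of 10 µg/ml TiO2 nanobelts over the control of the same time (x axis) is shown at 24 h and 1 h for the 12 higher and 12 lower genes chosen at 24 h, with 95% intervals from limma. At 1 h the intervals of 8 of the 12 lower genes lie below 0 (2 genes kept an unadjusted p under 0.05 without exposed array 2), while those of the 12 higher genes all include 0.

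Of the 12 higher genes with the smallest p, 5 were chemokines, and none passed the test. CXCL2 and CXCL3 belong to the cluster of neutrophil-attracting chemokines on chromosome 4, and the 250 bases before their start sites, on the minus strand of GRCh38.p14 from RefSeq, are shown because both carry 1 match to the NF-kappaB motif, searched as GGG, any 2 bases and then TTTCC. Those of ANKRD11 are shown as the same stretch of the gene with the widest change, which holds no match to that motif, to the NRF2 motif TGACNNNGC or to the AHR motif GCGTG. Capitals mark the match, and both strands were searched.
CXCL2, chr4:74099196-74099445: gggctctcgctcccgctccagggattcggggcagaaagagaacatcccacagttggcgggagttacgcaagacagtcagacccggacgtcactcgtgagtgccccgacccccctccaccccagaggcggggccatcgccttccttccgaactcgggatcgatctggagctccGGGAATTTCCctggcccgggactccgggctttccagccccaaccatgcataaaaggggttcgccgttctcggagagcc
CXCL3, chr4:74038690-74038939: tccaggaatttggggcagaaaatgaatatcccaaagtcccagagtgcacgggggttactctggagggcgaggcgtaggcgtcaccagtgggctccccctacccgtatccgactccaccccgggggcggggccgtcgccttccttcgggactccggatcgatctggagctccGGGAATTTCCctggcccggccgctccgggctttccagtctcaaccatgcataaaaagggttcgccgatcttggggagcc
ANKRD11, chr16:89490562-89490811: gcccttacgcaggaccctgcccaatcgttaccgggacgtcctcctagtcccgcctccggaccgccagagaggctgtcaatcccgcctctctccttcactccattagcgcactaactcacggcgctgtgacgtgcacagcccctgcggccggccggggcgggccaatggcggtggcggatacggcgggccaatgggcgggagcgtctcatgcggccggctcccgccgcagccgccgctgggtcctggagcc
The NF-kappaB motif was found in 1.73%, the NRF2 motif in 10.9% and the AHR motif in 32.2% of 35116 promoter stretches of this length. Of 15 cytokine and chemokine genes with a promoter among these stretches, 5 held the NF-kappaB motif, namely CXCL1, CXCL2, CXCL3, CXCL5 and CCL20. A gene counted here if any of its stretches matched, while the 1.73% is a share of single stretches, so the 2 are unlike measures. CXCL8 and CCL4, also among the 12 higher genes, are not among these 5, for lack of a match or of a promoter there. CXCL1 and CCL20 are not among the 12. A match is a sequence, not a measured binding site.

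CXCL3 read 7.70, 7.81 and 7.86 in the controls and 8.53, 8.36 and 8.45 with 10 µg/ml. CXCL2 read 7.18, 7.54 and 7.86 against 8.25, 8.19 and 8.32, and CXCL1 read 7.61, 7.70 and 8.01 against 8.57, 8.40 and 8.61. In all 3 genes the exposed arrays lay above every control array and close together. Their differences from control were 0.66 ± 0.152, 0.73 ± 0.175 and 0.76 ± 0.225 (SE), with adjusted p of 0.290, 0.330 and 0.723 in limma. The 95% interval of CXCL3 was 0.34 to 0.97 and that of CXCL2 0.37 to 1.09. CXCL2, CXCL3 and CXCL1 are close copies of one another, and how far their probes share signal was not tested.

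CXCL8, the main human neutrophil attractant, was already abundant, with 12.16, 12.14 and 12.24 in the controls and 12.59, 12.78 and 12.63 with 10 µg/ml. It differed by 0.48 ± 0.108 (adjusted p = 0.269, limma), and its second probe set by 0.58. CXCL5 read 3.38, 3.70 and 2.95 against 4.18, 4.21 and 4.14, a difference of 0.83 ± 0.219 (adjusted p = 0.428, limma). CXCL5 lay under the 25th percentile on all of these arrays and was kept through the 3 arrays of 100 µg/ml, so it was not shown to be above background in either group. The groups did not overlap in either gene. CCL4, which attracts monocytes and T cells, had the highest change of all 10050 genes at 0.87 ± 0.228, or 1.83-fold, from 8.39, 8.56 and 8.79 to 9.58, 9.44 and 9.34. Its adjusted p was 0.414 in the fit of 30 arrays and 0.00191 when only the 15 arrays of 24 h were fitted (limma).

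Of the 23 measured inflammatory cytokines and chemokines, none passed, 20 lay above 0 and the median difference was 0.327. Over all genes 5131 of 10050 lay above 0 and the median was 0.002. In 7 members the unadjusted p was under 0.05 and the gene higher, as in 2.44% of all genes, and in 9 the arrays lay wholly above control, as in 4.71%. CXCL5 is 1 of the 7 and of the 9. CCL2, a monocyte attractant, differed by 0.37 ± 0.217, TNF by 0.33 ± 0.206 and CCL20 by 0.48, each with overlapping arrays. LIF, an IL-6 family cytokine, differed by 0.36 and CSF1, the macrophage growth factor, by 0.34. IL1B read 13.70, 13.70 and 13.34 against 13.79, 13.73 and 13.35, and IL1A and IL18 stood at -0.03.

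The other rises in order of p were spread over several functions and did not pass either. SSTR2, a somatostatin receptor, read 4.98, 4.90 and 5.17 against 5.46, 5.79 and 5.57, and differed by 0.59 ± 0.124 with an adjusted p of 0.263 (limma). ZCCHC2, a zinc finger protein, differed by 0.29 ± 0.0620, with levels of 9.29, 9.40 and 9.32 against 9.61, 9.59 and 9.66. CD83, a surface marker of activated antigen-presenting cells, read 10.58, 10.65 and 10.51 against 10.85, 10.81 and 10.77. In these 3 genes the groups did not overlap. USP12, a deubiquitinase, differed by 0.34, TEAD3, a partner of YAP in transcription, by 0.37, TEKT2, a ciliary microtubule protein, by 0.37 and TMEM59L by 0.35. The last was the 1 gene of the 12 whose arrays overlapped with control. TEAD3, like CXCL5, lay under the 25th percentile in both groups and was kept through 100 µg/ml.

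Genes of the NF-kappaB pathway and early response genes showed smaller differences. Of 16 NF-kappaB subunits and feedback targets none passed, 13 lay above 0, and the median was 0.151. TNFAIP3, the ubiquitin-editing enzyme that ends NF-kappaB signalling, differed by 0.33, TNIP1, its partner, by 0.18, and NFKBIA, the inhibitor made in feedback, by 0.18. The adhesion molecule ICAM1 stood at -0.02 and the subunit NFKB2 at -0.02. Of 25 immediate early genes 19 lay above 0 with a median of 0.077 and none had an unadjusted p under 0.05. NR4A3, an orphan nuclear receptor, stood at 0.45, ATF3, a stress-induced factor, at 0.26, FOS at -0.04 and EGR1 at 0.02. DUSP4, a phosphatase of MAP kinases, stood at -0.56 ± 0.290, the largest difference of the list, and its arrays and those of ZFP36, an mRNA decay factor at -0.09, lay wholly below control. The arrays of 4 other members lay wholly above control. Over all genes 4.93% lay wholly below control and 4.71% wholly above. Of 22 genes of MHC class II and antigen presentation, 3 were higher at an unadjusted p under 0.05 (CD83, CD80 and HLA-DOA), against 2.44% of all genes, and the median was 0.040. CCR7, a chemokine receptor of migrating dendritic cells, read 4.52, 4.18 and 4.33 against 4.92, 4.73 and 5.04 (0.55 ± 0.167, adjusted p = 0.785, limma). On array 2 of both groups CCR7 read below TEAD3, which was under the 25th percentile there, so CCR7 was not shown to be above background. TNFAIP6, a hyaluronan-binding protein, differed by 0.51 ± 0.403 with overlapping arrays.

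No oxidative, metal or protein stress gene passed at 10 µg/ml. HMOX1, the haem-degrading enzyme induced by NRF2, read 10.15, 10.20 and 10.23 in the controls and 10.18, 10.18 and 10.13 with 10 µg/ml. Its difference was -0.03 ± 0.108, with a 95% interval of -0.26 to 0.19, so a change of 1.5-fold lay outside the interval. Of 23 NRF2 targets 15 lay above 0 (median 0.039), and TXNRD1, thioredoxin reductase, stood at 0.17 with arrays wholly above control. SLC7A11, the cystine importer, stood at 0.39. MT2A, a metallothionein, differed by -0.06, and 8 metallothionein and zinc export genes had a median of 0.013. CDKN1A, the p53 target that halts the cell cycle, stood at -0.03. Of 14 heat shock genes 11 lay above 0 (median 0.035), and of 25 genes of the unfolded protein and integrated stress response 8 did (median -0.024), with CHAC1 at 0.31 and DNAJC3, a chaperone of the endoplasmic reticulum, at -0.30.

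**Figure D5:**
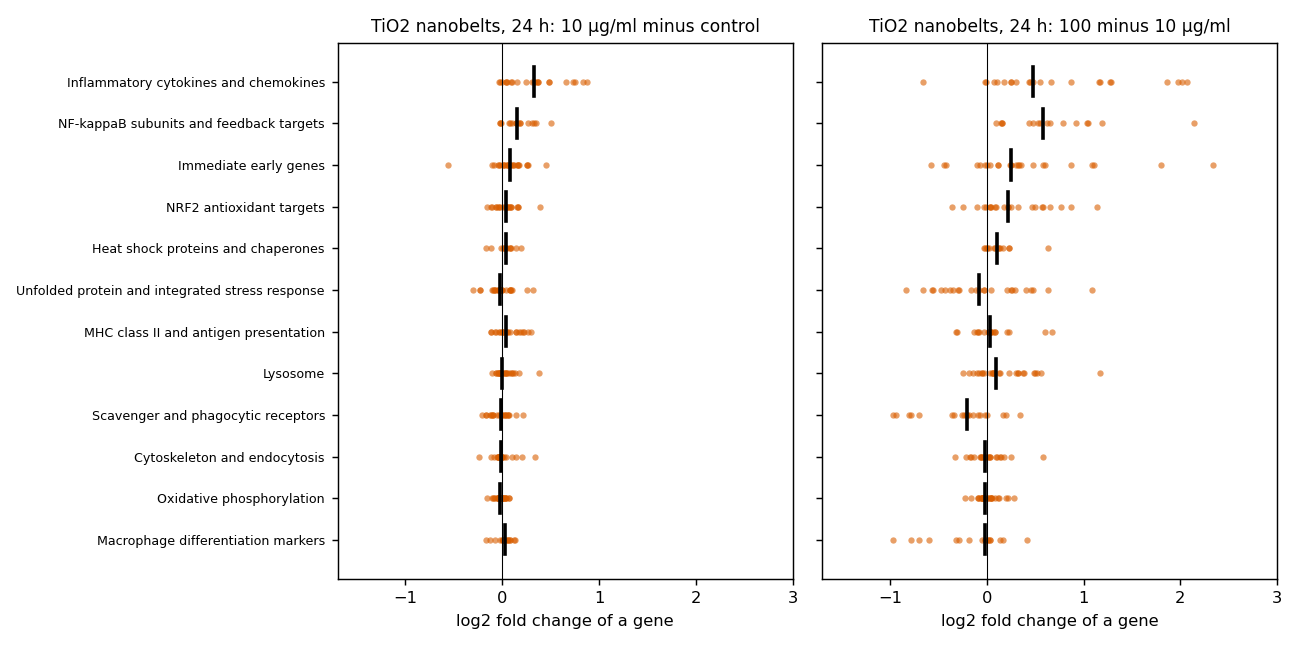
Each point is a gene of 1 of 12 lists, with its log2 fold change on the x axis, for 10 µg/ml TiO2 nanobelts minus control (left) and 100 minus 10 µg/ml (right) at 24 h, and a black bar at the list's median. At 10 µg/ml the cytokine and chemokine list has the highest median of those shown, 0.327, and the others lie between -0.024 and 0.151.

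No gene of particle uptake or of the organelles examined passed. Of 21 scavenger and phagocytic receptors none passed (median -0.015), with MSR1, the class A scavenger receptor, at 0.03, CD36 at 0.06, MARCO at 0.01 and the integrin subunit ITGAV at 0.21. Of 24 cytoskeleton and endocytosis genes 6 lay above 0 (median -0.015), among them EEA1, a tether of early endosomes, at 0.34 and RAB7A, which directs late endosomes, at 0.20, both with arrays wholly above control, as in 4.71% of all genes. The other 18 lay below 0, down to -0.24 for CAV1, a caveolin, and ARPC2, an actin nucleator subunit, at -0.05 had arrays wholly below control. Of 26 lysosome genes 13 lay above 0 (median 0.000), and the 95% interval lay within 1.5-fold for 25 of them. All 27 oxidative phosphorylation genes had intervals within 1.5-fold (median -0.021), as had 19 autophagy genes and 16 genes of cholesterol synthesis and uptake. HMGCS1, an enzyme of cholesterol synthesis, stood at 0.06 and ABCG1, a lipid exporter, at 0.08. Of the 32 lists examined, no list had a member that passed at 10 µg/ml.

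The step from 10 to 100 µg/ml moved far more genes. In the direct comparison 1355 genes (13.5%) passed in limma, 742 higher and 613 lower at 100 µg/ml, and 322 of them (3.2%) changed by at least 1.5-fold. Without exposed array 2 of the 10 µg/ml group the count was 874, and with only these 6 arrays it was 710. The array numbers of these groups did not pair (correlations of -0.35 to 0.30 for equal numbers). Array 1 of 100 µg/ml instead deviated with array 3 of 10 µg/ml (0.495), a spread that a block by array number does not match. Of the 23 cytokines and chemokines 10 were higher and 1 was lower, of the 16 NF-kappaB genes 12 were higher, and of the 23 NRF2 targets 11 were higher and 1 was lower. For all genes the shares were 7.38% higher and 6.1% lower. CXCL5 is 1 of the 10 cytokines and chemokines called higher (1.28, adjusted p = 0.000286, limma). It was kept by the intensity filter only through the 3 arrays of 100 µg/ml, the group in which it was called higher. CXCL8, CXCL3, CXCL2 and CCL4 were above the filter's limit on all 30 arrays. The remaining members of these lists were not checked for this.

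CCR7 had the largest rise of all genes tested between the doses. It rose by 2.82 from 10 to 100 µg/ml, to 8.11, 7.42 and 7.61. NR4A2, an orphan nuclear receptor, rose by 2.34, TNFAIP6 by 2.14, ZBTB10 by 2.10, PTGS2, the inducible cyclooxygenase, by 2.09 and CXCL2 by 2.07 (adjusted p of 0.00132 or less, limma). At 10 µg/ml PTGS2 stood at 0.29, NR4A2 at 0.26 and ZBTB10 at 0.21 from control, and none passed. On some arrays of control and of 10 µg/ml NR4A2, like CCR7, read below TEAD3, which was under the filter's limit there. NR4A2 and CCR7 were therefore not shown to be above background at 10 µg/ml, so the sizes of their rises are uncertain. CXCL2 at 100 µg/ml read 10.68, 10.10 and 10.19, CXCL3 read 10.70, 10.04 and 10.19 and CCL4 read 11.51, 11.34 and 11.42, in each case above every array of 10 µg/ml. HMOX1 rose by 0.49 between the doses (adjusted p = 0.00283, limma), to 10.64, 10.64 and 10.68.

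LBH, a transcriptional cofactor, fell by 1.45 from 10 to 100 µg/ml, the largest fall of all genes tested. GJA1, a gap junction protein, fell by 1.42, CHODL, a lectin-like membrane protein, fell by 1.39, and THSD7A, a membrane protein with thrombospondin repeats, fell by 1.38. NAA15, a subunit of the N-terminal acetyltransferase NatA, fell by 1.37 and PRR5L, a protein bound to mTORC2, fell by 1.30 (adjusted p of 0.00744 or less for the 6 genes, limma). At 10 µg/ml these 6 stood between -0.52 and -0.29 from control and none passed. GJA1 read 3.65, 3.92 and 3.47 with 100 µg/ml. On the arrays where it read 3.92 and 3.47, COX20 read 4.25 and 4.56 and was under the filter's limit. GJA1 was therefore not shown to be above background at 100 µg/ml, so the size of its fall is uncertain. PRR5L read 7.72, 7.87 and 7.75 in the controls and 7.44, 7.37 and 7.38 at 10 µg/ml, with no overlap. SBNO1, which stood at -0.79 from control at 10 µg/ml, differed between the doses by 0.01 (95% interval -0.35 to 0.37) and CASP2 by -0.01 (-0.27 to 0.25).

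Set directly against 10 µg/ml MWCNT at 24 h, 1 of 10050 genes (0.00995%) passed in limma. ANKRD11 was lower with TiO2 nanobelts by 1.27 ± 0.195 (adjusted p = 0.0107, limma), and the call was lost without exposed array 2 or exposed array 3 of the TiO2 group. The count was 4 with the array number as a block over 30 arrays and 0 over 9 or 6. In the test of single probe sets 2 (0.0131%) passed, that of ANKRD11 and the dimmer one of TOP1 (-1.53), both lower. NPTX1, a secreted pentraxin, read 9.06, 9.07 and 8.26 with TiO2 nanobelts, 8.02, 7.94 and 7.58 with MWCNT and 9.24, 9.35 and 8.30 in the controls. It stood 0.95 ± 0.276 above MWCNT (adjusted p = 0.196, limma) and -0.16 from control.

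Genes of the aryl hydrocarbon receptor and interferon-stimulated genes were set against MWCNT as well, and none of them passed. Of 9 aryl hydrocarbon receptor genes, 4 were higher with TiO2 nanobelts at an unadjusted p under 0.05 (6.02% of all genes were). They were CYP1B1, a hydroxylase of polycyclic compounds and oestrogens, at 0.53, TIPARP, a feedback ADP-ribosyltransferase, at 0.52, CYP1A1 at 0.38 and CYP1A2 at 0.30. The list's median from control was 0.067 with TiO2 nanobelts and -0.075 with MWCNT. CYP1B1 stood at -0.13 from control with TiO2 nanobelts and at -0.66 with MWCNT. On its other kept probe sets it stood 0.05, 0.33 and 0.98 above MWCNT, and 0.07, -0.33 and 0.38 from control. Of 33 interferon-stimulated genes 29 lay lower with TiO2 nanobelts than with MWCNT (median -0.216), 8 with an unadjusted p under 0.05, as in 4.26% of all genes in that direction. Against control the median of this list was 0.046 with TiO2 nanobelts and 0.215 with MWCNT, both over the same control arrays. Of the 23 inflammatory cytokines and chemokines, 16 lay higher with TiO2 nanobelts than with MWCNT and 7 lower (median 0.06). Against control the median of this list was 0.327 with TiO2 nanobelts and 0.178 with MWCNT. Among its members CXCL8 stood 0.37, CXCL3 0.48 and CXCL5 0.75 above MWCNT, while CCL4 stood at 0.05 (adjusted p of 0.196 to 0.973, limma). CXCL5 was under the filter's limit on every array of both materials at this dose and time, so it was not shown to be above background.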

How the data were processed

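The deposited table holds log2 intensities of 22277 probe sets on 30 arrays (10 groups of 3). The authors made them with RMA, as the submitters' processing notes say without a version. Per the labels' protocols, biotin-labelled cRNA was made from 3 µg of total RNA with an oligo-dT primer. Values were used as deposited.

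Of these probe sets 62 were controls, 19064 of the others matched 1 gene, 1043 several and 2108 none; the last 2 kinds were dropped. Probe sets were kept if above the array's 25th percentile on at least 3 arrays (15312), and the brightest stood for its gene, which gave 10050 genes, 3421 of them with several. Groups came from the labels. 1 limma 3.58.1 fit (R 4.3.3) of 30 arrays with 10 group means gave 20 residual degrees of freedom, 23.81 with the prior. Two-sided p-values were adjusted by Benjamini-Hochberg over all genes within a comparison, and called under 0.05. Scripts were tested on simulated data. Errors of changes are standard errors of the fit. Arrays have no read depth, so precision depends on their number.

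The members, the gene lists and the tests were chosen with earlier results of these data known. Named genes were the 12 rises and 12 falls with called genes first and then the smallest p, a set list of 16 genes, and 6 genes a direction with the largest called changes in the direct comparisons. Other genes, list members included, were named after their values were seen. Equal array numbers of the 24 h control and the 10 µg/ml TiO2 group deviated together (correlations of 0.228, 0.106 and 0.652), each over 0.1. The array number was therefore used as a block in alternative fits. The main fit had no block, so its p-values take no account of a pairing. Unequal numbers reached 0.431 and 0.388 for arrays 1 and 2, so only array 3 matched its own number best. Alternatives changed the arrays fitted, the block, the scaling, the filter, the probe set of a gene and the variance model, and left arrays out. Promoter sequences are RefSeq's (GRCh38.p14), where TMEM50B was not matched.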

Additional observations from a re-analysis of the deposited data

Results flagged for a closer look

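ANKRD11 differed between the materials at the same dose and time. Its log2 level with 10 µg/ml TiO2 nanobelts was 1.27 below that with 10 µg/ml MWCNT (-1.268, adjusted p = 0.0107, limma), as all 3 TiO2 arrays lay below all 3 MWCNT arrays. It stood out because the direct test of 1 material against the other passed for this gene.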

How the results depend on the processing

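The count of 2 called genes at 10 µg/ml, both lower, became 0 with only the groups compared, with a replicate block over 9 or over 6 arrays, and with array 3 of both groups left out, which was chosen after seeing the data (477, 1095, 773 and 305 genes with an unadjusted p under 0.05). It was 1 with trend and robust variance, 3 with only the 15 arrays of 24 h (2 at 1.5-fold or more, and CCL4 as the 1 higher gene), 3 with the replicate block over 30 arrays (2 at 1.5-fold), 3 with probe set means (2 at 1.5-fold), and 15 with every probe set tested (1 higher, 14 lower, 13 at 1.5-fold). Leaving out 1 array gave 1 to 3 called, 1 to 3 lower, and 1 to 2 at 1.5-fold. ANKRD11 was called in 16 and TMEM50B in 10 of 20 alternatives. The 1355 genes between the doses became 710 with only the groups compared and 874 to 1356 without 1 array. They became 279 with a replicate block over the groups compared, whose array numbers did not pair. The 1 gene against MWCNT became 0 with only the groups compared, 4 with the 24 h arrays, 4, 0 and 0 with the replicate block over 30, 9 or 6 arrays, 2 with centring, 2 with every probe set, 194 with array weights, and 0 to 1 without 1 array. The comparison of 24 h with 1 h called 0 genes in every alternative run. Of 46 named genes, 8 changed sign under an alternative, none of them called: HMOX1, IL1B, MT2A, CDKN1A, ABCG1, HMGCS1, NPTX1 and ZBTB10. The cause of these moves was not tested. With 3 arrays a group, the unadjusted 95% interval of a gene reached a median of 0.212 to either side on the log2 scale. That width is not the limit of the calls, which used adjusted p-values and each gene's own spread. TMEM50B passed at -0.30, while CCL4 at 0.87 did not.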
